A study of Mus musculus with 8 samples.

Results

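Endothelial identity genes are those that mark a cell as belonging to the inner lining of blood vessels. Here 10 of them were followed in the epididymal fat of male mice, a visceral white adipose depot: the growth factor receptors Kdr and Flt1, the angiopoietin receptors Tek and Tie1, the guidance receptor Robo4, the junction and adhesion genes Cdh5, Pecam1, Cldn5 and Esam, and the secreted haemostasis gene Vwf. They were taken by name as a list of well-known endothelial genes, and all 10 were found by gene identifier among the 24821 genes of the deposited table. All 10 also passed the filter on low values that left 17798 genes for testing. Their direction had been seen in these data before the list was drawn up, so the list is not independent evidence of its own direction.

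The study compared 4 libraries from mice lacking Ccdc92 (KO) with 4 libraries from wild-type mice (WT), all male and on a C57BL/6 background. The WT mice were age-matched littermates of the KO mice, and both groups had eaten a diet with 60% of its calories from fat for 14 weeks. The kind of deletion and the age of the mice are not stated in the labels. The labels give 4 replicates a group but do not say that each was its own mouse. The tests therefore weigh differences against the scatter of these libraries, and that scatter may be partly technical.

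Blood endothelium of fat forms a dense capillary bed around the adipocytes. Vascular endothelial growth factor (VEGF) signals to it through Kdr (VEGFR2), the main signalling receptor, while Flt1 (VEGFR1) binds VEGF tightly, signals weakly and acts largely as a trap. Angiopoietins act on Tek (TIE2), with Tie1 as its partner receptor, and steady angiopoietin signalling keeps vessels quiescent and tight. Neighbouring cells are held together by Cdh5 (VE-cadherin) at adherens junctions, by Cldn5 (claudin 5) at tight junctions, and by the immunoglobulin-type adhesion proteins Pecam1 (CD31) and Esam.

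The libraries held 23681088 to 33817478 reads assigned to genes. The values below are normalized counts, that is reads divided by a size factor per library. Levels per kilobase are these divided by the exon length of the gene, with the exons of all its annotated transcripts merged. Ccdc92 itself was at 54.1, 68.3, 105.8 and 99.3 in WT replicates 1 to 4 and at 9.19, 5.13, 9.67 and 4.85 in KO replicates 1 to 4, and every KO value was below every WT value. The adipocyte genes Adipoq (adiponectin) and Plin1 (perilipin 1) reached at least 12578 and 15369.7 in every library, as the tissue label has it. Genes of the epididymal duct, which adjoins this depot, summed to 39039.9 to 118134 in WT and to 10.9 to 1554 in KO. Of 14 listed, 8 passed the filter on low values (10 or more in at least 4 libraries). The WT libraries alone can meet that filter, so a fall was favoured by it. Of these 8 genes 5 fell, where 3831 of all 17798 tested genes fell. Without both libraries named next 2 fell, but genes present only in WT could not pass the filter there and were not tested. Red cell genes stood apart in WT replicate 4, at 469895, and in KO replicate 3, at 6580645, against 64483 to 142955 in the other libraries. The part of epididymal RNA in the endothelial values was not tested. Counts of members were also taken without these 2 libraries.

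The stretches of DNA just before the transcription starts of 4 members are shown first. RefSeq promoter windows (GRCm38.p6) were matched by symbol for 6 of the 10 members. Printed are those whose RefSeq start lay within 3 bases of the start in the GENCODE M21 annotation, and only bases before both starts, in the direction of transcription. Capitals mark a GC box (GGGCGG, or CCGCCC on the other strand), an ETS core (AGGAAG or CGGAAG, both strands) or a TATA box (TATAAA, both strands). ETS factors are known regulators of endothelial genes, and Sp1 binds GC boxes. The windows are Kdr at chr5:75978459-75978705 on the minus strand, Flt1 at chr5:147726012-147726261 on the minus strand, Tek at chr4:94739039-94739288 on the plus strand and Cldn5 at chr16:18776597-18776846 on the plus strand.
Kdr: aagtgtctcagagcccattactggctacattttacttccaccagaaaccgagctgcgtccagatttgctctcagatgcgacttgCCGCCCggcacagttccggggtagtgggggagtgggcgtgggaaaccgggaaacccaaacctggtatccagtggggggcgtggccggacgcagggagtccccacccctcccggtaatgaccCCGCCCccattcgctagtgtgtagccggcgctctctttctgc
Flt1: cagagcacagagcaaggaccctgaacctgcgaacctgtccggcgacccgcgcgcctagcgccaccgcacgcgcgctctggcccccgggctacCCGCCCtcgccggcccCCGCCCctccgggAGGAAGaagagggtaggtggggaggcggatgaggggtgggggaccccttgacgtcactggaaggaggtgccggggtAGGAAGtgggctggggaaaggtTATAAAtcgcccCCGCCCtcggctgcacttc
Tek: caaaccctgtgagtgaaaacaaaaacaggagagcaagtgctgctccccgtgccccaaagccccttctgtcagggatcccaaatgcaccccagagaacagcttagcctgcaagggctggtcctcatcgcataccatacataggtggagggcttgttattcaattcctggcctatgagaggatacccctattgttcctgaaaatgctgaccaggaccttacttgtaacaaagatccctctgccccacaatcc
Cldn5: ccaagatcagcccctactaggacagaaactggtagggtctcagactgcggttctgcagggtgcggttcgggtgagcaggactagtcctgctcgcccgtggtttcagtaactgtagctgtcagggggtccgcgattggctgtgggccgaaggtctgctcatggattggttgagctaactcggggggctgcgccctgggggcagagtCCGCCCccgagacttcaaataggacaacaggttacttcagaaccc

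The Flt1 window was the richest of the 4 in G and C, at 70.4%, with 23 CpG dinucleotides, and it held 3 GC boxes, 2 ETS cores of the AGGAAG form and 1 TATA box. The Kdr window had 61.5% G and C, 16 CpG dinucleotides and 2 GC boxes. In the Cldn5 window, 59.6% of bases were G or C, with 12 CpG dinucleotides and 1 GC box. The Tek window, at 51.2% G and C and 2 CpG dinucleotides, held none of the motifs searched. Over 32851 RefSeq windows of 250 bases, the median was 52.4% G and C with 6 CpG dinucleotides. On either strand, 32.7% of these windows held GGGCGG, 29.5% AGGAAG, 13.6% CGGAAG and 12.4% TATAAA. A match is one of letters only, and a window without a match says nothing of the factor.

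Of the 10 endothelial identity genes, 6 were higher in KO, by 1.63-fold to 2.50-fold, and none was lower. Robo4, Kdr and Flt1 were at 2.50, 2.32 and 2.05 times their WT level, Cldn5, Tek and Esam at 1.94, 1.65 and 1.63 times, and these were the members that passed the test (limma with Benjamini-Hochberg adjustment over all 17798 genes, adjusted p under 0.05). Of all tested genes, 20.2% passed as higher in KO and 41.7% in either direction. In the same 6 members no KO library overlapped a WT library, which held, in the direction of higher KO, for 21% of all tested genes. The median log2 fold change was 0.71 over the members and -0.01 over all tested genes. Quantile normalization moved the median of all genes by 0.10 and the split of calls from 3592 higher and 3831 lower to 4593 and 3257. Less that shift, the log2 fold changes of the members ran from 0.31 for Vwf to 1.24 for Robo4. The test after quantile normalization was run without taking off the shift. In it 6 members passed, where 4593 of all 17798 tested genes passed as higher.

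The number of members past the test was 4 without WT replicate 3, where the genes that passed as higher also dropped, to 2707 of 17375 tested. It was 8 without WT replicate 2, where 3388 of 17414 genes passed as higher, and 5 without both libraries rich in red cell genes, where 2654 of 17121 did. With weights that count outlying libraries less, all 10 passed, where 26.6% of all genes passed as higher. Kdr, Flt1, Robo4 and Tek passed in each of the 19 alternatives. In bulk tissue, more cells of a type and more RNA per cell cannot be told apart.

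**Figure D1:**
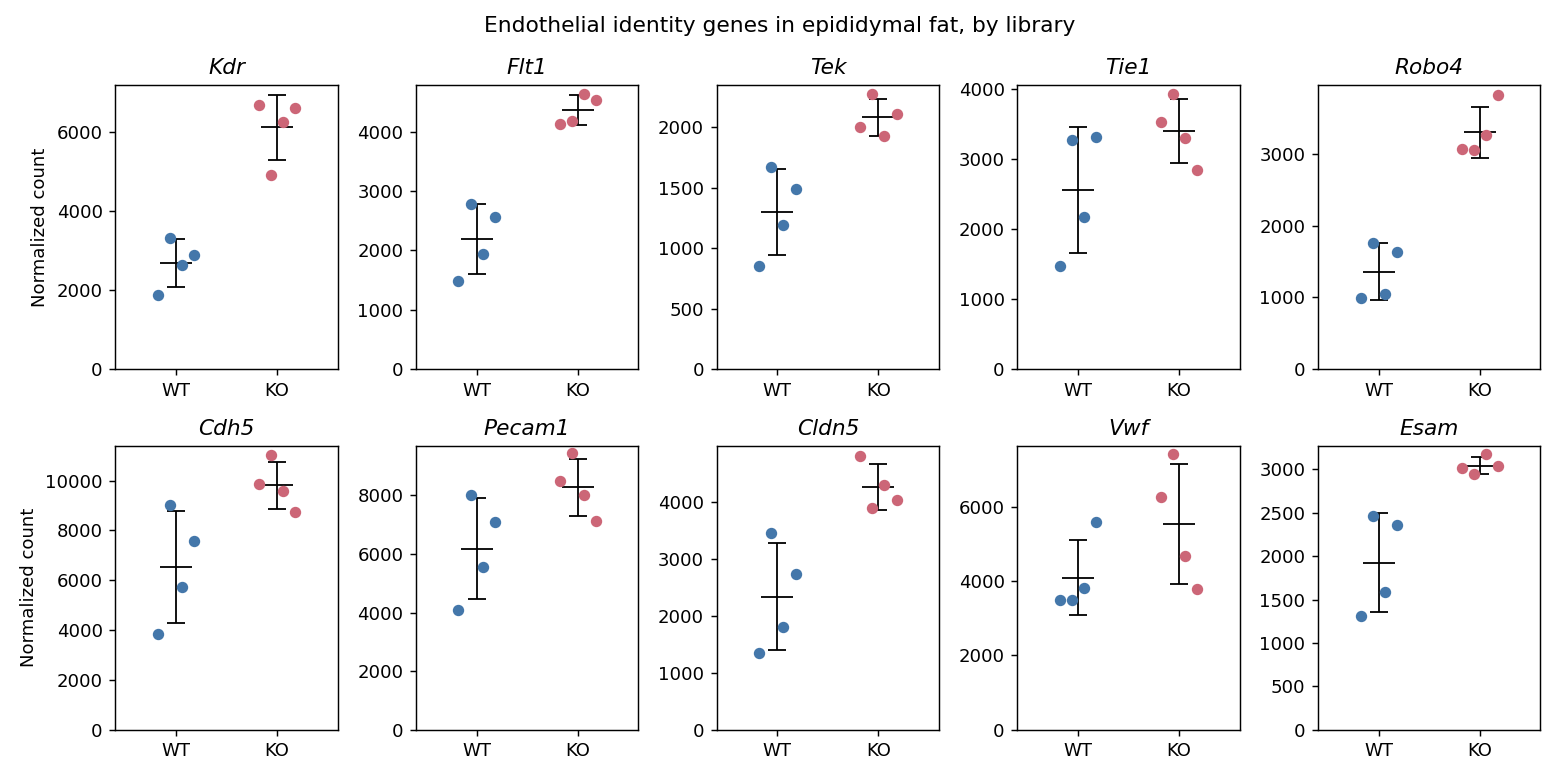
Normalized counts of the 10 endothelial identity genes, with 1 panel per gene and 1 point per library (blue WT, red KO); the long bar is the mean and the short bars are the SD, n = 4 per group. WT and KO points are separate in 6 panels, and they overlap for Tie1, Cdh5, Pecam1 and Vwf.

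The VEGF receptor genes both rose. Kdr (ENSMUSG00000062960.10, chromosome 5, 75932827 to 75978458, minus strand) was at 1860.3, 3308, 2632 and 2892 in WT replicates 1 to 4 and at 6684, 4912, 6247 and 6593 in KO replicates 1 to 4. Every KO library was above every WT library, and KO replicate 2 was the lowest of the KO group. The means were 2673 ± 609 in WT and 6109 ± 820.0 in KO (SD, n = 4 each), with a log2 fold change, KO over WT, of 1.21 (standard error, SE, 0.18, 95% interval 0.80 to 1.63, limma adjusted p = 0.00154).

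Flt1 (ENSMUSG00000029648.13, chromosome 5, 147561604 to 147726011, minus strand) was at 1479.6, 2774, 1937 and 2566 in WT and at 4121, 4174, 4627 and 4532 in KO. The KO libraries lay close together, with a coefficient of variation of 5.81%, while the WT libraries varied by 27.0%. The means were 2189 ± 592 and 4363 ± 254 (SD, n = 4 each), with a log2 fold change of 1.04 (SE 0.19, 95% interval 0.61 to 1.46, limma adjusted p = 0.00329). Both receptor genes lie on the chromosome of the targeted gene, Kdr at 48.9 Mb and Flt1 at 22.7 Mb from Ccdc92; whether DNA near the targeted locus differs between the groups was not tested. Within a library, the log2 difference of Flt1 from Kdr, not adjusted for gene length, lay between -0.44 and -0.17 in WT and between -0.70 and -0.23 in KO. These ranges overlapped, and the difference between groups was -0.18 (exact permutation test, two-sided, p = 0.2, adjusted p = 0.24 over 6 planned pairs). With 4 libraries against 4 the smallest p this test can give is 0.0286. A pair at that p does not pass adjustment over 6 pairs unless other pairs reach it too.

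Robo4, a roundabout receptor of endothelium that stabilises vessels, had the largest fold change of the 10. The gene (ENSMUSG00000032125.20, chromosome 9, 37401897 to 37415115, plus strand) was at 990.7, 1764, 1052 and 1633 in WT and at 3066, 3060.1, 3269.8 and 3824 in KO. The lowest KO library was well above the highest WT library. The means were 1359.8 ± 395 and 3305 ± 359 (SD, n = 4 each), or 1.32 on the log2 scale (SE 0.20, 95% interval 0.87 to 1.77, limma adjusted p = 0.00154).

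Esam, an adhesion protein of endothelial tight junctions, lies near Robo4 on chromosome 9 (ENSMUSG00000001946.14, 37528078 to 37538319, plus strand). It was at 1304, 2462, 1584 and 2357 in WT and at 3011, 2941, 3179.5 and 3034 in KO. The groups did not overlap, and the KO libraries varied by 3.29%, the smallest coefficient of variation among the members, against 29.6% in WT. The means were 1927 ± 570 and 3041 ± 100 (SD, n = 4 each), with a log2 fold change of 0.71 (SE 0.20, 95% interval 0.26 to 1.16, limma adjusted p = 0.0201). The call was lost without WT replicate 3 (limma adjusted p = 0.0577) and without KO replicate 3 (limma adjusted p = 0.0504).

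The log2 difference of Esam from Robo4 lay between 0.40 and 0.59 in the WT libraries and between -0.33 and -0.03 in the KO libraries, with no overlap. The shift of -0.61 had the smallest p this test can give (exact permutation p = 0.0286) and missed the threshold after adjustment over 6 pairs (adjusted p = 0.0857). Msantd2, which lies between them, was at 0.17 on the log2 scale (SE 0.17, limma adjusted p = 0.452).

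Of the angiopoietin receptors Tek passed and Tie1 did not. Tek (ENSMUSG00000006386.15, chromosome 4, 94739289 to 94874976, plus strand) was at 854.9, 1671, 1194 and 1489.7 in WT and at 2005, 2281, 1933 and 2115 in KO. Again no KO library reached down to the WT range. The means were 1302 ± 357 and 2083 ± 151 (SD, n = 4 each), and the log2 fold change was 0.72 (SE 0.19, 95% interval 0.28 to 1.16, limma adjusted p = 0.0172).

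Tie1 (ENSMUSG00000033191.14, chromosome 4, 118471191 to 118490061, minus strand) was at 1468, 3276, 2178 and 3319 in WT and at 3534, 3935, 3299 and 2846 in KO. KO replicates 3 and 4 lay below WT replicate 4, KO replicate 4 also lay below WT replicate 2, and WT replicate 1 was the lowest of all. The means were 2560.3 ± 899.8 and 3403 ± 455 (SD, n = 4 each), and the log2 fold change of 0.48 did not pass (SE 0.26, 95% interval -0.11 to 1.06, limma adjusted p = 0.166). Without WT replicate 1 it was 0.24. The log2 difference of Tie1 from Tek lay between 0.78 and 1.15 in WT and between 0.43 and 0.82 in KO, ranges that overlapped, and the shift of -0.24 did not pass (exact permutation p = 0.0857, adjusted p = 0.129 over 6 pairs).

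**Figure D2:**
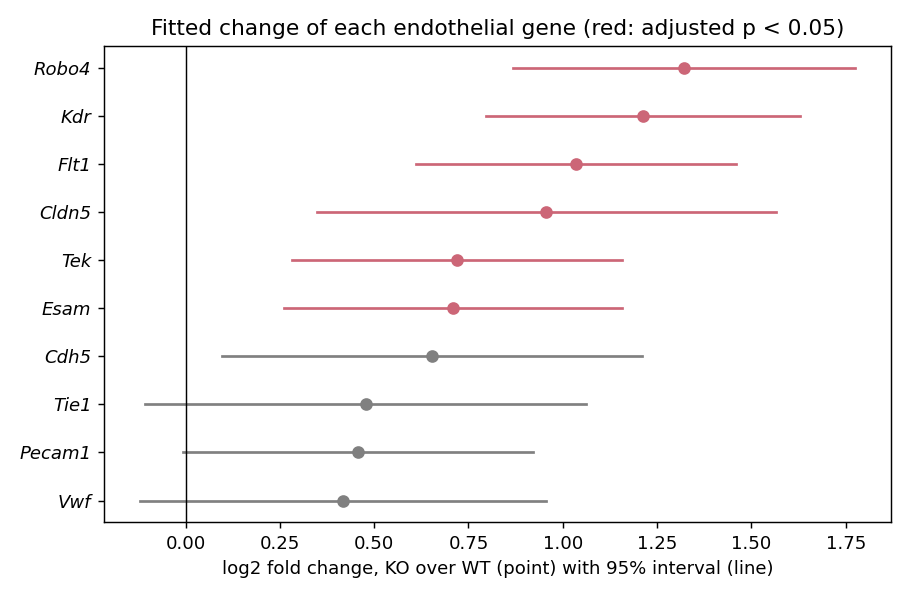
Fitted log2 fold change of each gene, KO over WT (horizontal axis), as a point with its 95% interval, n = 4 libraries per group; red marks a limma adjusted p under 0.05. Robo4, Kdr and Flt1 lie above 1, and the intervals of Tie1, Pecam1 and Vwf include 0.

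Of the other junction and adhesion genes, Cldn5 passed, and Cdh5 and Pecam1 did not. Cldn5 (ENSMUSG00000041378.2, chromosome 16, 18776847 to 18778262, plus strand) was at 1350.3, 3451, 1809 and 2735 in WT and at 4817, 3902, 4304 and 4043 in KO. The groups did not overlap, although WT replicate 2 came close to the lowest KO library. The means were 2336 ± 940.3 and 4267 ± 403 (SD, n = 4 each), with a log2 fold change of 0.96 (SE 0.27, 95% interval 0.35 to 1.56, limma adjusted p = 0.0205). The call was lost without WT replicate 3 (limma adjusted p = 0.0577), without KO replicate 1 (0.0515) and without both libraries rich in red cell genes (0.0519).

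Cdh5, which encodes VE-cadherin (ENSMUSG00000031871.9, chromosome 8, 104101625 to 104144511, plus strand), was at 3824, 9037, 5729 and 7566 in WT and at 9863, 11042, 9590.2 and 8749 in KO. Only WT replicate 2 and KO replicate 4 overlapped. The means were 6539 ± 2259.8 and 9811 ± 948 (SD, n = 4 each), and the log2 fold change was 0.65 (SE 0.24, 95% interval 0.10 to 1.21, limma adjusted p = 0.0606). Cdh5 passed without WT replicate 2 (limma adjusted p = 0.0204) and with DESeq2 (adjusted p = 0.0394), while without WT replicate 1 its log2 fold change was 0.42 (limma adjusted p = 0.0817). An antisense gene, Gm29682, overlaps Cdh5 in the annotation and is not analysed here; since no strand setting is known, reads of the 2 could not be separated.

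Pecam1, the adhesion protein CD31 of endothelium, which platelets and leukocytes also carry, lies on the minus strand of chromosome 11 (ENSMUSG00000020717.19, 106654217 to 106750628). It was at 4097, 8005, 5562 and 7075 in WT and at 8499, 9429, 8014 and 7129.8 in KO. KO replicate 4 was inside the WT range. The means were 6185 ± 1718 and 8268 ± 959 (SD, n = 4 each), and the log2 fold change of 0.46 did not pass (SE 0.20, 95% interval -0.01 to 0.92, limma adjusted p = 0.103). It passed without WT replicate 2 (0.60, limma adjusted p = 0.0394) and was at 0.27 without WT replicate 1 (limma adjusted p = 0.192).

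Relative to Cdh5, Pecam1 was lower and Cldn5 higher in KO, both short of the threshold after adjustment. The log2 difference of Pecam1 from Cdh5 lay between -0.17 and 0.10 in WT and between -0.30 and -0.21 in KO, with no overlap. The shift was -0.20 (exact permutation p = 0.0286, adjusted p = 0.0857 over 6 pairs). That of Cldn5 from Cdh5 lay between -1.66 and -1.39 in WT and between -1.50 and -1.03 in KO, and the shift of 0.30 did not pass (exact permutation p = 0.0857, adjusted p = 0.129).

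Vwf, the clotting glycoprotein that endothelium and platelets store, was the member least correlated with the others. The gene (ENSMUSG00000001930.17, chromosome 6, 125546774 to 125686679, plus strand) was at 3489.5, 3483, 3817 and 5587 in WT and at 6259, 7434, 4689 and 3776.5 in KO. The groups overlapped widely: KO replicate 4 was below WT replicate 3, and WT replicate 4 was above KO replicates 3 and 4. The means were 4094 ± 1007 and 5539.5 ± 1627 (SD, n = 4 each), and the log2 fold change of 0.42 did not pass (SE 0.24, 95% interval -0.12 to 0.96, limma adjusted p = 0.186). It was at 0.26 without KO replicate 2 (limma adjusted p = 0.385), and at 0.64 without WT replicate 4 and KO replicate 3 together, where it did not pass either. Its log2 difference from Cdh5 lay between -1.38 and -0.13 in WT and between -1.21 and -0.57 in KO (exact permutation p = 0.486, adjusted p = 0.486). Of 12 genes of platelets, the other source of Vwf, 8 passed the filter on low values, and of these 1 fell and none rose. Over all tested genes, 41.7% passed in either direction. The number of platelet genes that fell was 3 without KO replicate 3, and 0 without WT replicate 3 or 4 or without KO replicate 1, 2 or 4. The genes summed to 1643 to 2012 in WT and to 1281 to 1446 in KO replicates 1, 2 and 4, but to 4346 in KO replicate 3. Their defining marker Itga2b was at 227 to 331 in WT and at 87.3, 113, 742 and 109 in KO, and the part of platelet RNA in the Vwf values was not tested.

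The ratio of a growth factor or guidance receptor to Cdh5 was examined after these fold changes had been seen, so it is a description of these libraries. Robo4 minus Cdh5 was -2.44 to -1.95 on the log2 scale in WT and -1.85 to -1.19 in KO, without overlap. The shift was 0.67 (exact permutation p = 0.0286, adjusted p = 0.0857 over 9 pairs). Kdr shifted by 0.56 and Flt1 by 0.38 against Cdh5, with overlapping ranges (exact permutation p = 0.0857 and 0.0571, adjusted p = 0.11 for each). None of the 9 pairs passed after adjustment, but a pair at p = 0.0286 in the permutation test could not pass on its own.

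**Figure D3:**
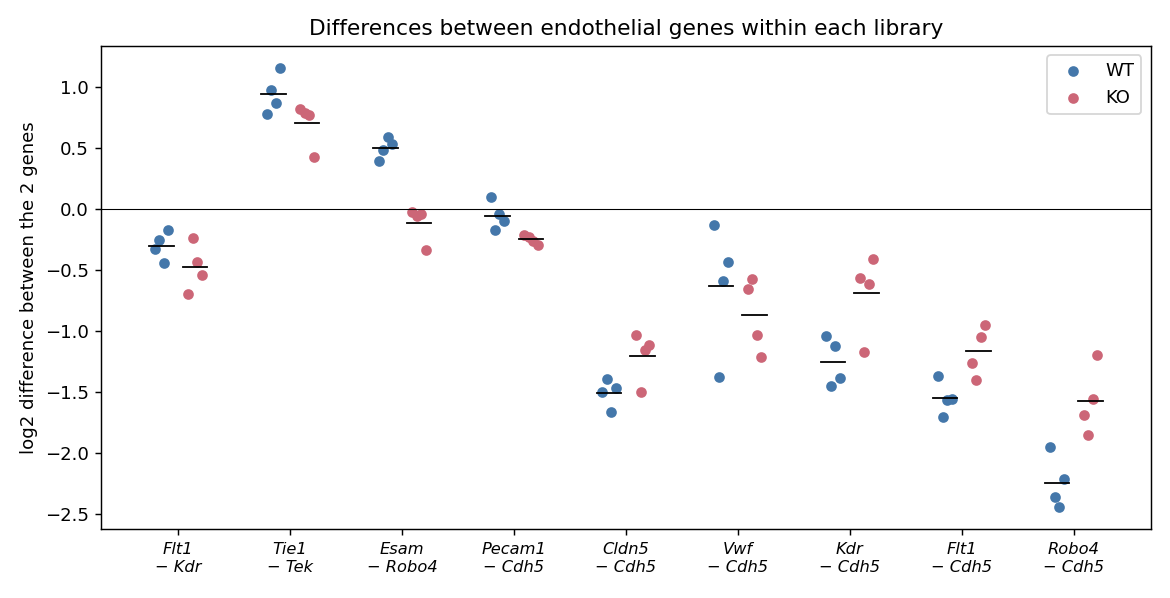
Difference between 2 endothelial genes within each library, as log2(normalized count + 1) of the first minus the second (vertical axis), with 1 point per library (blue WT, red KO) and a bar at each mean, n = 4 per group. The points of the groups are separate for Esam minus Robo4, Pecam1 minus Cdh5 and Robo4 minus Cdh5; the last 3 pairs were chosen after the fold changes were seen.

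Per kilobase of exon, Cldn5 was the most abundant of the 10 in both groups, at 1650.1 in WT and 3013 in KO, followed by Cdh5 at 1556 and 2334 and by Pecam1 at 993 and 1328. Esam, at 672 and 1061, and Tie1, at 521 and 692, came next. Kdr followed at 296 in WT and 677 in KO, and Flt1 was lowest at 162 and 323. The order was the same in both groups except that Tek and Robo4 changed places, from 276 and 256 in WT to 442 and 623 in KO. Vwf, at 255 in WT and 345 in KO, was ninth in each. With these SDs, neighbours in the order such as Cldn5 and Cdh5 in WT, or Tek, Robo4 and Vwf in WT, did not differ beyond their spread. The order also rests on the merged exon length, which was 1416 bases for Cldn5, 13504 for Flt1 and 16064 for Vwf. Whether the transcripts in this tissue hold all of these exons was not tested. Every member was well covered, since the fewest reads behind any value were the 932 of Tek in WT replicate 1 (95% exact Poisson interval 873 to 994, counting error only).

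The members varied together among the WT libraries. WT replicate 1 was the lowest WT library for 9 of 10 members, and 8 members had the same order of WT libraries, with replicate 1 lowest, then 3, 4 and 2. Summed over the members, levels were 20719, 39232, 27494 and 37221 in WT replicates 1 to 4, and 51859, 53110.0, 49153 and 46642 in KO replicates 1 to 4. No KO sum reached the WT range. The coefficient of variation was larger in WT than in KO for 9 of 10 members, the exception being Vwf (24.6% in WT, 29.4% in KO).

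**Figure D4:**
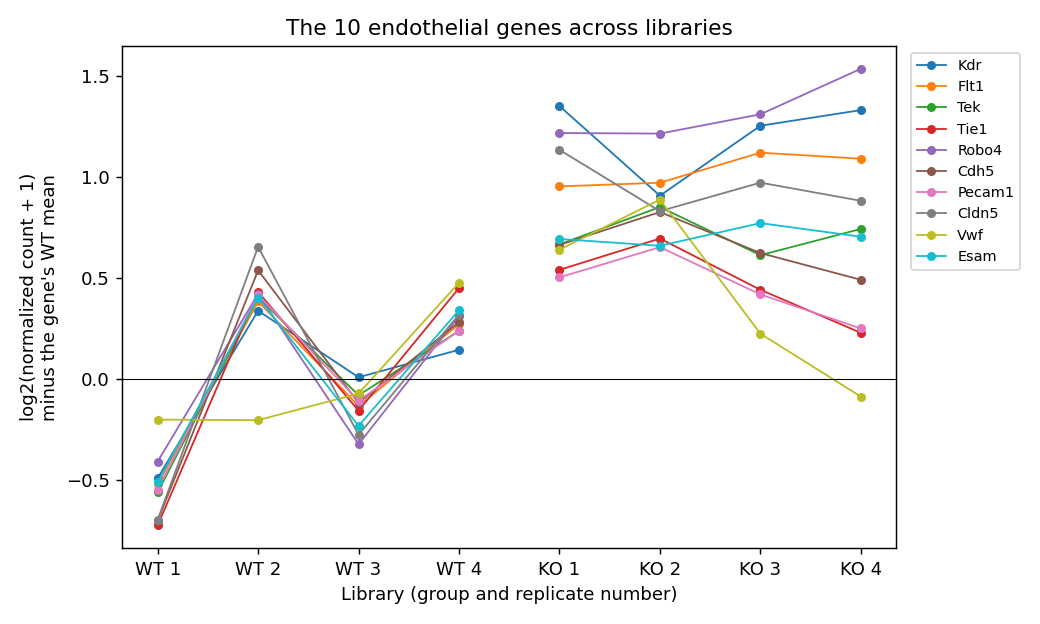
Log2(normalized count + 1) of each gene minus its WT mean (vertical axis) in each library (horizontal axis); a line joins the values of 1 gene within a group, and libraries have no order. The WT lines run in parallel apart from Vwf. As the WT mean is subtracted, the KO lines are set apart by the fold change of each gene. Kdr is highest in KO replicate 1 and Robo4 in KO replicates 2, 3 and 4.

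After the mean of each group was taken away, the correlation of each member with the mean of the other members over the 8 libraries was 0.93 to 0.97 for Flt1, Tek, Tie1, Cdh5, Pecam1, Cldn5 and Esam. It was 0.81 for Robo4, 0.74 for Kdr and 0.27 for Vwf. The genes outside the list most like the member mean, of 14383 with a mean of at least 50, were Adgrg1 (0.994), Igfbp3 (0.993), Cdh13 (0.992), Lgalsl (0.992), Ghr (0.992), Mmachc (0.992), Itga1 (0.992) and Laptm4b (0.991). Of these, 5 passed the test as higher, from 0.71 for Mmachc to 1.52 for Ghr on the log2 scale. Igfbp3, Lgalsl and Itga1 did not pass (limma adjusted p = 0.178, 0.0674 and 0.0558). The centred mean of the members ran from -0.54 to 0.38 in WT and only from -0.08 to 0.06 in KO. All these correlations therefore rest mostly on the WT libraries. They also describe points that share libraries and normalization.

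The order of the WT libraries was shared with other cell types of the tissue. Adipocyte genes summed to 467331, 877124, 587737 and 718594 in WT replicates 1 to 4, the same order as the members. Macrophage genes summed to 315705, 148438, 230957 and 174996, the reverse order. In KO, adipocyte genes were at 1797969 to 2256793 and macrophage genes at 48953 to 74629.9, outside the WT ranges in both cases. Of the adipocyte genes 16 of 17 passed as higher (Adipoq 1.97, Plin1 1.62 and Lipe 1.81 on the log2 scale), and of the macrophage genes 12 of 14 passed as lower and 1 as higher (Adgre1 -2.42, Cd68 -2.73 and Itgam -1.99). Of all 17798 tested genes, 3592 passed as higher and 3831 as lower. Within KO the member sums ran in the opposite order to the adipocyte sums, with replicate 2 highest in members and lowest in adipocyte genes. How far the mix of cell types accounts for the endothelial differences was not tested.

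The ligands of these receptors were divided. Of 15 ligands and partner receptors, 5 rose and 3 fell, with a median log2 fold change of -0.01. Of all 17798 tested genes, 20.2% passed as higher and 41.7% in either direction, and their median was also -0.01. Vegfa, the main ligand of Kdr, was at 1254, 1934, 1622 and 1741 in WT and at 8215, 6307, 9879 and 13029 in KO. The groups did not overlap, and Vegfa rose by 2.48 on the log2 scale (SE 0.22, limma adjusted p = 0.00035). Vegfb, a ligand of Flt1, rose from 1259 ± 268 to 3739 ± 616 (SD, n = 4 each), by 1.58 on the log2 scale (limma adjusted p = 0.000582). The other ligands of the family did not pass: Vegfc at 0.19, Vegfd at -0.03 and Pgf at -0.13.

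On the angiopoietin side, the agonist Angpt1 was at a log2 fold change of -0.08 (limma adjusted p = 0.844), while Angpt2, which antagonises it in many settings, fell from 515 ± 115 to 274 ± 73.5 (SD, n = 4 each; log2 fold change -0.92, limma adjusted p = 0.014). Angpt4 was at -0.67 (limma adjusted p = 0.396). Ptprb, the phosphatase that dampens Tek signalling, rose from 4597 ± 1220.3 to 10485 ± 183 (SD, n = 4 each), by 1.23 on the log2 scale (limma adjusted p = 0.00154). Among Slit ligands, Slit2 fell, with -1.47, and Slit3 rose, with 0.49 (limma adjusted p = 0.000379 and 0.0115). Of the neuropilins, co-receptors of VEGF, Nrp2 fell from 5604 ± 1502 to 2281 ± 357 (log2 fold change -1.27, limma adjusted p = 0.00176), and Nrp1 was at -0.01 (limma adjusted p = 0.899). Unc5b, a partner of Robo4, was at 0.33 (limma adjusted p = 0.0617) and passed without KO replicate 3 (limma adjusted p = 0.0188). Flt4, the VEGF receptor of lymphatic endothelium, passed at 0.79 (limma adjusted p = 0.0395) and lost the call without WT replicate 3 (0.0674) or without KO replicates 1, 2 or 3 in turn (0.095, 0.0882 and 0.0549).

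Other lists of endothelial genes were counted by vessel type. For these and the lists after them, the shares over all tested genes were 20.2% higher and 41.7% in either direction. Of 24 other genes of blood endothelium 17 rose and 2 fell, with a median log2 fold change of 0.74. Tm4sf1, a membrane protein of endothelium, rose by 1.12 and the adhesion receptor Adgrl4 by 1.05, while Cd93, an adhesion receptor that myeloid cells also carry, fell by 1.00 and the adrenomedullin receptor Calcrl was at -0.51 (limma adjusted p = 0.000576, 0.00166, 0.00166 and 0.0402). The call of Calcrl was lost in turn without WT replicates 1, 3 and 4 (limma adjusted p 0.0921, 0.0796 and 0.0668) and without KO replicates 1, 3 and 4 (0.0641, 0.0861 and 0.0847).

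Of 11 capillary genes 8 rose and 1 fell, with a median of 1.22. Timp4, a protease inhibitor, rose by 2.52, Rgcc, a cell cycle regulator, by 1.82, the transcription factor Tcf15 by 1.66 and Cd300lg, a capillary surface protein, by 1.22, while the fatty acid carrier Fabp5 fell by 0.86. Adipocytes and macrophages also express some genes of this list, Fabp5 among them. Of 12 arterial genes 8 rose and none fell, with a median of 0.83, and without WT replicate 3 the number was 4. The arterial Notch ligand Dll4 rose by 1.19, the receptor Notch4 by 1.10, the factor Sox17 by 1.25 and the semaphorin Sema3g by 0.89. Of 9 venous genes, 1 of which is Vwf, 1 rose and 1 fell, with a median of -0.13: Ephb4, the venous ephrin receptor, rose by 0.83 and Vcam1, an adhesion protein for leukocytes, fell by 0.87. The venous number past the test was 3 in place of 2 without WT replicate 2, WT replicate 4 or KO replicate 2. The difference between vessel types was not tested.

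**Figure D5:**
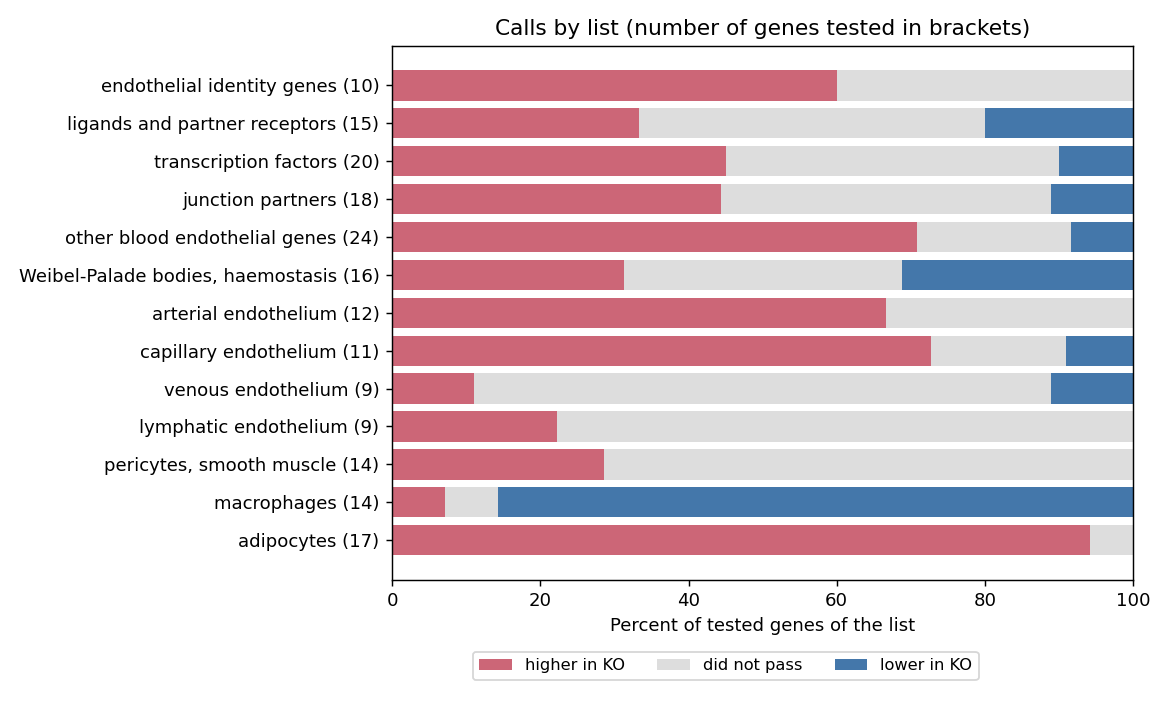
Share of tested genes in each list (horizontal axis, percent; number tested in brackets) that passed as higher in KO (red), as lower in KO (blue) or did not pass (grey), by limma adjusted p under 0.05, n = 4 libraries per group. Endothelial identity, other blood endothelial, arterial and capillary genes are mostly red, venous genes mostly grey and macrophage genes mostly blue.

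Transcription factors of endothelium rose in 9 of 20 and fell in 2, with a median log2 fold change of 0.53. Without both libraries rich in red cell genes the number past the test was 7 in place of 11. Klf4, a factor induced by flow, rose by 0.92, Sox7 by 1.75 and Foxo1, which restrains endothelial growth and also acts in adipocytes, by 0.85. Hhex fell by 0.93 and Lyl1, a factor shared with blood cells, by 0.51; Lyl1 lost its call without the same 2 libraries (limma adjusted p = 0.0756).

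Partners of the junction proteins rose in 8 of 18 and fell in 2, with a median of 0.37. The catenin Jup rose by 1.31, Cd99l2 by 0.50, the tetraspanin Cd151 by 0.61 and the junctional adhesion molecule Jam2 by 0.70. The tight junction gene Ocln fell by 3.66. Epithelia express it too, and the epididymal genes given above fell in the same libraries; their part in the Ocln values was not tested.

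Genes of Weibel-Palade bodies, the granules that store Vwf, and of haemostasis at the vessel wall were split evenly: 5 of 16 rose and 5 fell, with a median of -0.16. The calls over all 17798 tested genes were split nearly evenly too, 3592 higher and 3831 lower. Thbd, the anticoagulant thrombomodulin, rose by 1.48. The regulators of granule release Stxbp5 and Unc13d fell by 0.87 and 1.46, and the granule membrane protein Cd63, which macrophages also hold, fell by 1.15. Macrophage genes fell in the same libraries, and their part in these values was not tested.

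Cells that accompany vessels were looked at by their markers, beside shares over all tested genes of 20.2% higher and 41.7% in either direction. Of 14 genes of pericytes and smooth muscle 4 rose and none fell, with a median of 0.37, and that number was 2 without WT replicate 3 or without KO replicate 1, 2 or 3, and 6 without WT replicate 4. Their sum was 18323.5, 35861, 25573 and 77923 in WT replicates 1 to 4 and 39952 to 56839 in KO. The KO libraries were all above WT replicates 1 to 3 and below WT replicate 4, which is also rich in red cell genes. Rgs5, a pericyte marker, was at 0.98 (limma adjusted p = 0.0446) and lost its call without WT replicates 1 or 3 (0.0737 and 0.0979) or KO replicates 1, 2 or 3 (0.1, 0.0988 and 0.0843), while Cspg4 was at -0.42 (0.218). Of 9 lymphatic genes 2 rose, with a median of 0.31, a share near that of all genes. The number was 1 without WT replicate 3, KO replicate 1 or KO replicate 3, and 3 without KO replicate 4, and without KO replicate 2 it was 1 higher and 1 lower. The lymphatic master factor Prox1 was at -0.16 (limma adjusted p = 0.83), and Lyve1, which tissue macrophages share, rose by 1.81. Genes of dividing cells fell in 10 of 10, Mki67 by 2.15 among them, where 3831 of all 17798 tested genes fell.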

How the data were processed

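RNA from epididymal fat was sequenced in 4 WT and 4 KO libraries. The deposited signal is a normalized count per gene made by the authors. Per the submitters' processing notes, the tools included STAR 2.7.7 and DESeq2, and the build was GRCm38.p6. Not given in the sources used here are the counter, its strand setting, its filters and its gene models. In each library 100% of values were whole multiples of 1 step (tolerance 0.01), which gave back the whole reads, 23681088 to 33817478 per library. Libraries of 1 group differed by more than sampling noise. Gene identifiers were matched to GENCODE M21 (24802 of 24821 without their version), which gave symbols, positions on GRCm38 and exon lengths.

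Genes at 10 or more in at least 4 libraries entered limma 3.58.1 in R 4.3.3, as log2(normalized count + 1), using a variance trend, robust moderation and Benjamini-Hochberg adjustment over 17798 genes. The same filter was kept when libraries were left out. Fold changes are on that scale, which understates changes of low genes. Pair differences had an exact two-sided permutation test over the 70 splits. edgeR 4.0.16 and DESeq2 1.42.0 on the recovered reads were alternatives, beside other pseudocounts, filters, scalings, library weights, a replicate block and left-out libraries. The fit was tested on simulated data.

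The members, lists and tests were chosen with earlier results of these data known. Genes open to being named, of which not all are printed, were the members, any ligand or partner receptor, up to 4 called genes with the smallest p per endothelial list plus up to 3 called the opposite way, the first 3 markers of each other cell type, and the 8 genes most like the member mean. A gene that is counted in its list may be left unnamed, as its own result is not reported here.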

Additional observations from a re-analysis of the deposited data

Results flagged for a closer look

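A library was marked where it lay far from the other 3 of its group, its gap to the nearest passing Dixon's 95% critical value. Of 56 groups of 4 looked at, 6 were marked, and chance alone marks about 1 in 20. Among the members this was Vwf in WT replicate 4, at 5587.0 against 3483 to 3817. The summed platelet genes were at 1642.5 in WT replicate 2, against 1959.6 to 2012 in the others, and at 4345.8 in KO replicate 3, against 1281 to 1446. The summed red cell genes were at 469895.3 in WT replicate 4, against 64483 to 69489.5, and at 6580644.5 in KO replicate 3, against 104466 to 142955. The summed genes of fibroblasts and adipocyte progenitors were at 171730.2 in KO replicate 2, against 92600.1 to 105033.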

How the results depend on the processing

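Over the 190 values of members under alternatives, none changed direction; 178 kept their side of the threshold, 5 lost a call and 7 gained one. The members past the test numbered 10 with library weights, in place of 6, and 4 to 8 when libraries were left out. With library weights 16 junction partners passed in place of 10, and 4 venous genes in place of 2. With libraries left out, arterial genes past the test ran from 4 to 8 and endothelial transcription factors from 7 to 12. Of 1597 values under alternatives of the 85 genes that the naming rule covers, printed or not, 1525 kept their side and 0 reversed. All 126 values of gene pairs kept direction and side. A pair at the smallest p does not pass adjustment on its own, so that they kept side says little. Over all genes, calls ran from 5481 without WT replicate 3 to 9767 with library weights, against 7423. After the group mean of each gene was taken away, same-numbered WT and KO libraries correlated at -0.14, 0.05, -0.04 and 0.17. These values do not settle whether the replicate numbers pair the libraries. Of the WT libraries, replicate 4 alone correlated best with the KO library of its own number. The best match of each KO library was not looked at. With a replicate block 6 members and 6266 genes passed. Depth does not limit the member values, as each rests on at least 932 reads. The number of libraries limits the tests of pairs, whose smallest p is 0.0286.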
